A study of Mus musculus with 18 samples.

Results

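The keratins described here are the products of 10 genes, Krt5, Krt14, Krt15, Krt24, Krt1, Krt10, Krt77, Krt79, Krt75 and Krt18, chosen by symbol and matched by identifier in all 10 mRNA libraries. They were 10 of the 53 keratin genes and of the 32285 genes in the files. The study measured gene expression in single cells of mouse back skin 1, 2 or 4 days after surgery. In both arms an incision near the tail and a path under the skin up to the neck were made. Expanded mice then had a hydrogel expander, a device that swells and stretches the skin, placed under the skin near the neck, whereas control mice had none. Live cells were sorted, and the mice of 1 arm were pooled in 1 tube in each sequencing round, so a library is a pool of animals and the unit of every test. Rounds 1 and 2 on day 1, rounds 1 and 2 on day 2 and round 1 on day 4 gave 5 control and 5 expanded libraries, and on day 4 there was 1 library in each arm. The strain, age and number of the mice are not given in the sources used here.

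Keratins are the intermediate filament proteins of epithelial cells, and a filament needs a type I and a type II partner. Krt5 (type II) and Krt14 (type I) are the pair of basal keratinocytes, and Krt1 (type II) and Krt10 (type I) replace them in the suprabasal layers as cells differentiate. Krt15 and Krt24 are type I keratins known from hair follicle bulge cells, Krt79 marks the upper follicle and its canal, Krt75 the companion layer of the follicle, Krt77 suprabasal epidermis, and Krt18 simple epithelia and Merkel cells.

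The type II genes lay on mouse chromosome 15 (GRCm38), Krt5 at chr15:101707070-101712898, Krt1 at chr15:101845426-101850794, Krt77 at chr15:101858731-101869705, Krt79 at chr15:101929332-101940324 and Krt75 at chr15:101563345-101573904, all on the minus strand. The type I genes lay on chromosome 11, Krt14 at chr11:100203162-100207548, Krt15 at chr11:100131758-100135928, Krt24 at chr11:99279959-99285262 and Krt10 at chr11:99385254-99389364, also on the minus strand. Krt18, a type I gene, lay at chr15:102028180-102032027 on the plus strand, on the chromosome of the type II genes. An antisense gene, Gm11940, overlaps Krt10, and whether the authors' counting used strand is not given in the sources used here. The 100 bases before the RefSeq start sites (GRCm38.p6) are shown for Krt5, the member with the smallest adjusted p between the arms, Krt24, which had the largest fold change among members tested in bulge-like cells, and Krt10 and Krt77, whose levels followed each other across keratinocytes. Each is written 5′ to 3′ on the gene's strand (minus), and capitals mark a TATA-box-like motif, TATAA or ATAAAA, searched on both strands together with the AP-1 motif TGANTCA.
Krt5: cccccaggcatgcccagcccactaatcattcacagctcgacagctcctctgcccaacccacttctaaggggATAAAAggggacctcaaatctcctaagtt
Krt24: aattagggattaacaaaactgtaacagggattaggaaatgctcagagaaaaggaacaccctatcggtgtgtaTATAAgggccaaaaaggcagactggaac
Krt10: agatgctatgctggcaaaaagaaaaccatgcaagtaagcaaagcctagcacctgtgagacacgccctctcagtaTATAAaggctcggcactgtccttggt
Krt77: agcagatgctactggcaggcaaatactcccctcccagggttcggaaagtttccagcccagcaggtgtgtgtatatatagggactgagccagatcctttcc
These windows are chr15:101712906-101713005 for Krt5, chr11:99285263-99285362 for Krt24, chr11:99389365-99389464 for Krt10 and chr15:101869706-101869805 for Krt77. Krt5 held ATAAAA, Krt24 and Krt10 held TATAA, and the Krt77 window held none of the searched motifs. The Krt77 window does hold tatatata, which was not a searched motif, so the search does not show that a TATA box is absent there. Of 32817 windows of this length over all genes, 10.2% held TATAA, 7.07% ATAAAA and 2.73% TGANTCA, and the AP-1 motif was in none of the windows shown.

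The libraries held 17726739 to 75470722 UMIs (counted mRNA molecules). After filtering, 45488 cells remained, of which 5109 fell into clusters with keratinocyte markers and 4878 were described, 2024 from control and 2854 from expanded skin. Keratinocytes numbered 61 to 725 in a control library and 132 to 1399 in an expanded one, and no more than 18 barcodes were shared between any pair of libraries. Clustering left out keratin genes, so that the members did not define the clusters. Named from other markers, 1330 cells were bulge-like, 870 upper follicle-like, 291 cycling-like, 290 sebaceous gland-like and 137 spinous-like. The other clusters lacked 3 markers of a type, had no clear lead of 1 type or were led by other keratins, and are called by their leading gene. Levels are counts-per-million (CPM), a gene's UMIs scaled to all UMIs of the cells summed in a library, and with 3′ tags they do not scale with gene length. A summed CPM alone does not tell fewer cells of a type from less RNA per cell where the cells of a class differ among themselves. The share of cells with a UMI, given for some genes, also depends on depth.

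**Figure D1:**
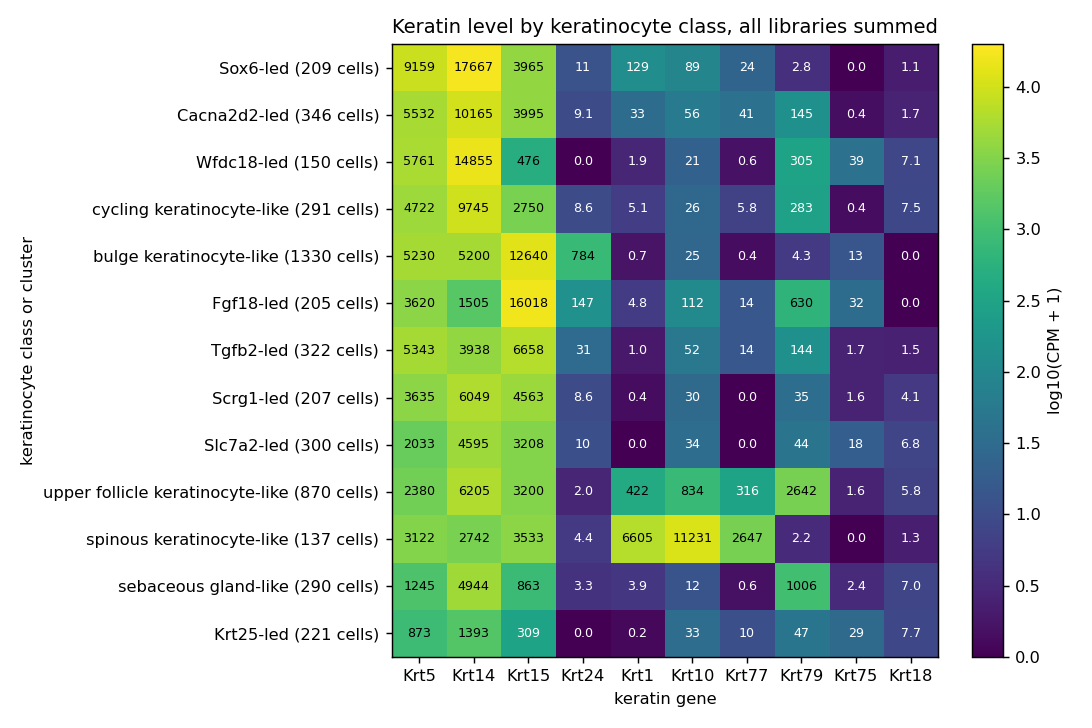
Level of each of the 10 keratins (log scale of CPM) in each keratinocyte class, with cells of all libraries summed. Krt24 was highest in bulge-like cells at 784 CPM, Krt1, Krt10 and Krt77 in spinous-like cells, and Krt79 in upper follicle-like cells.

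Krt5, the type II keratin of basal cells, was found in 94.4% of keratinocytes and was highest in the Sox6-led cluster, at 9159 CPM (6612 to 10171 over 4 libraries with at least 20 cells). It stood at 5230.2 CPM in bulge-like cells, 2380.1 CPM in upper follicle-like cells and 3122 CPM in spinous-like cells. The lowest level, 873 CPM, was in the Krt25-led cluster, whose leading genes Krt25, Krt28, Krt35 and Krt71 are keratins of the inner root sheath and hair, and which held all 10 cycling markers. Krt14, its type I partner, was also highest in the Sox6-led cluster, at 17667 CPM, followed by the Wfdc18-led cluster at 14855 CPM. The partners did not share one order of levels. Bulge-like cells had 5200.1 CPM of Krt14, below the 6205 CPM of upper follicle-like cells, the reverse of their order for Krt5. The library ranges of both classes overlapped for Krt14 (4541 to 7244 over 9 libraries against 3411 to 8642 over 9 libraries) and did not for Krt5.

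Over all keratinocytes, Krt5 and Krt14 were higher in expanded than in control skin. Krt5 rose with a log2 fold change of 0.72 (SE 0.12, adjusted p = 0.00626) in edgeR's quasi-likelihood test over 11479 genes, and Krt14 with 0.54 (SE 0.12, adjusted p = 0.0186). These were 2 of the 10 members, against a background of 8.14% of all genes called in either direction (934 genes, or 1418 with the pair of day and round as a block, with the same number of members). Control libraries held 2673 (day 1 round 1), 2308 (day 1 round 2), 2581 (day 2 round 1), 3407 (day 2 round 2) and 2060.0 (day 4) CPM of Krt5. Expanded libraries held 5543 (day 1 round 1), 4872 (day 1 round 2), 3704 (day 2 round 1), 4262 (day 2 round 2) and 3687 (day 4) CPM. Every expanded library lay above every control library, with means of 2606 ± 509 (SD, n = 5) and 4414 ± 797 (SD, n = 5). Krt14 stood at 4435, 4687, 4445, 6537 and 4478 CPM in control libraries and at 6337, 7523, 7177, 7205 and 8390.4 CPM in expanded ones, in the same order. Here the groups overlapped, since the control library of day 2 round 2 exceeded the expanded one of day 1 round 1, and within each of the 5 pairs of day and round the expanded library was higher.

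The Krt5 call held when any 1 library was left out (adjusted p = 0.00207 to 0.0314). That of Krt14 was lost without the day 1 round 1 control library (adjusted p = 0.0554), the day 1 round 2 expanded library (0.0607), the day 4 control library (0.0745) or the day 4 expanded library (0.0752), and with cells thinned to 2000 UMIs (0.0753). The makeup of keratinocytes also differed between arms. The Krt25-led cluster, lowest in both genes, made up 0 to 14.6% in control and 0 to 1.80% in expanded libraries. Without it and the sebaceous gland-like cells, the Krt5 difference was 0.47 (SE 0.09, adjusted p = 0.00655) and that of Krt14 0.36 (SE 0.13, adjusted p = 0.0673), so the second was no longer called. In 10 of the 11 classes measured in both arms, the mean of expanded libraries was higher for Krt5, and likewise for Krt14, with no test of these counts. The classes share libraries, and some means rest on 1 library. The expanded mean of sebaceous gland-like cells, for example, comes from day 4 alone. Fibroblast markers, 7 genes summed, were 139 to 1042 CPM in control and 15.8 to 149 CPM in expanded libraries, and neutrophil markers, 5 genes summed, 0 to 6.37 CPM in control and 8.36 to 988 CPM in expanded libraries. Their part in the keratin differences was not tested.

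**Figure D2:**
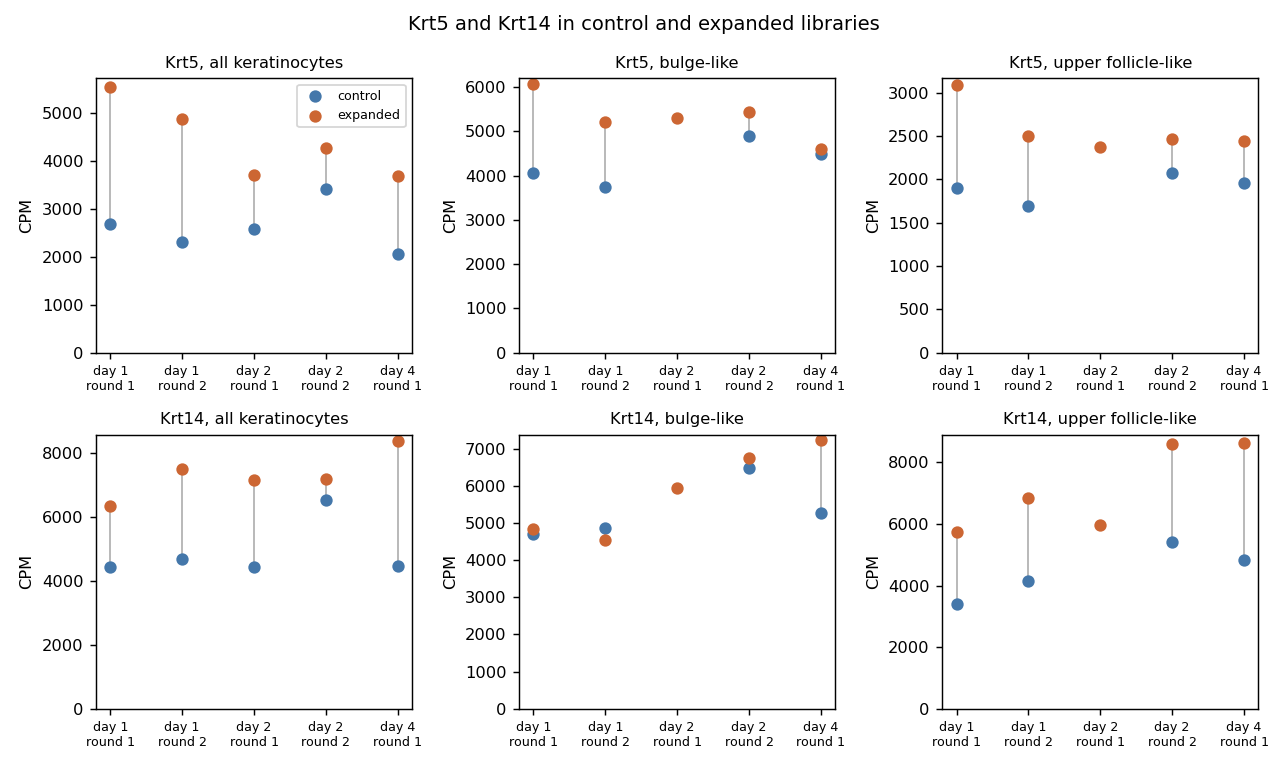
Krt5 and Krt14 CPM in each library by arm and day, for all, bulge-like and upper follicle-like keratinocytes. For Krt5 in all keratinocytes the 5 expanded libraries (3687 to 5543 CPM) lie above the 5 control libraries (2060.0 to 3407 CPM).

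In bulge-like cells alone, no member passed the test, although 6 could be tested and 4.91% of 7394 genes were called. By the unadjusted edgeR p-value 1618 of those genes lay under 0.05, and DESeq2 called 305 genes and no member. Krt5 had a log2 fold change of 0.24 (SE 0.09, adjusted p = 0.152) and Krt14 of 0.03 (SE 0.10, adjusted p = 0.912). The control library of day 2 round 1 had 16 bulge-like cells and was left out, which leaves 4 control libraries. Krt5 was at 4065, 3736, 4892 and 4482 CPM in these and at 6078, 5221, 5303, 5432 and 4598 CPM in the expanded libraries, and the groups overlapped.

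Krt14 also rose in upper follicle-like cells, with a log2 fold change of 0.59 (SE 0.12, adjusted p = 0.0114), 1 of the 7 members tested against 5.57% of 7599 genes called. The genes called were 188 higher and 235 lower, against 85 and 175 by DESeq2, and 733 in all with the pair of day and round as a block. The 4 control libraries held 3411, 4144, 5403 and 4828 CPM and the 5 expanded ones 5725, 6834, 5952, 8594 and 8642 CPM, without overlap, with means of 4447 ± 861 (SD, n = 4) and 7149 ± 1403 (SD, n = 5). Leaving out the day 4 control library (adjusted p = 0.0782) or the day 4 expanded library (adjusted p = 0.0771) ended the call. So did thinning cells to 2000 UMIs, with 0.47 (SE 0.12, adjusted p = 0.0548), keeping keratin genes in the clustering, with 0.45 (SE 0.13, adjusted p = 0.0538), clustering at a Leiden resolution of 2, with 0.40 (SE 0.17, adjusted p = 0.235), and taking the larger of the clusters in this class alone, with 0.25 (SE 0.13, adjusted p = 0.264). Krt5 was at 1896, 1685, 2074 and 1952 CPM in control and 3093, 2495, 2371, 2469.8 and 2445 CPM in expanded libraries. These did not overlap either, but the fold change of 0.36 (SE 0.11, adjusted p = 0.0643) missed the threshold. With the pair of day and round as a block the Krt5 value was 0.38 (SE 0.09, adjusted p = 0.0153) and passed it. Neutrophil markers in this class were 6.89 to 19.9 CPM in control and 12.5 to 1663 CPM in expanded libraries, and their part was not tested.

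Krt15, a type I keratin of the bulge and basal layer, was highest in the Fgf18-led cluster at 16018 CPM (15228 to 17222 over 3 libraries) and next in bulge-like cells at 12640.1 CPM (9757 to 13774 over 9 libraries). The Tgfb2-led cluster followed with 6658 CPM. Krt24 was far more restricted. It was found in 66.5% of bulge-like cells, at 784 CPM, and in 15.1% of Fgf18-led cells, at 147 CPM. With all libraries summed, any other class held no more than 31.0 CPM. The Tgfb2-led cluster, at that level, ran from 0 to 119 CPM over 4 libraries with at least 20 cells. Its highest library was the expanded one of day 1 round 2. Among the upper follicle-like cells 1.03% held a Krt24 UMI.

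Over all keratinocytes and days, neither gene passed the test. Krt15 had a log2 fold change of 0.35 (SE 0.19, adjusted p = 0.275), higher in 3 of 5 pairs, and Krt24 of 1.88 (SE 0.74, adjusted p = 0.167), higher in 5 of 5 pairs. DESeq2 called Krt24 higher (adjusted p = 0.0455), as did edgeR without the day 2 round 2 control library (adjusted p = 0.0345). On day 1 alone, 3 of the 10 members were called, all of them higher in expanded skin, with 7.07% of 11479 genes called. These were Krt5 with 0.99 (SE 0.17, adjusted p = 0.00744), Krt15 with 0.99 (SE 0.16, adjusted p = 0.00648) and Krt24 with 3.63 (SE 0.71, adjusted p = 0.0455). No member was called on day 2, when 0 genes passed in edgeR and 1197 had an unadjusted p under 0.05, nor on day 4, when 8 genes passed. On day 1 the Krt15 level was 4063 and 3243 CPM in the control libraries and 8165 and 7088 CPM in the expanded ones. On day 2 it was 4994 and 5639 CPM in control and 4476 and 4968 CPM in expanded libraries, so both expanded libraries lay above both controls on day 1 and below both on day 2. The difference between those days was -1.18 (SE 0.23, adjusted p = 0.0850), which missed the threshold. Within expanded libraries the log2 difference of Krt15, day 4 less day 1, was -0.97 (SE 0.21, adjusted p = 0.0390), 1 of the 10 members called, with 1.81% of all genes called. With 1 library in each arm on day 4, the SE and p of every day 4 value rest on the spread between the libraries of days 1 and 2 and assume that day 4 varies alike. Days differ in round and operation too, and these cannot be told apart.

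The share of bulge-like cells among keratinocytes moved with these day 1 values, at 20.6 and 12.0% in control and 40.8 and 36.5% in expanded libraries. It was 18.7% in the expanded library of day 4. Cycling-like cells made up 2.71 and 2.57% in the day 1 expanded libraries and 18.0% in that of day 4. The part of this makeup in the lower Krt15 of day 4 was not tested. Within bulge-like cells the day 1 difference of Krt15 was 0.06 (SE 0.15, adjusted p = 0.877). That of Krt24 was 2.07 (SE 0.35, adjusted p = 0.0561), and over all days 1.01 (SE 0.50, adjusted p = 0.324). Krt24 in bulge-like cells was at 139.8 (day 1 round 1), 326 (day 1 round 2), 461 (day 2 round 2) and 249 (day 4) CPM in control libraries. In expanded libraries it was at 929.5 (day 1 round 1), 1154 (day 1 round 2), 620.2 (day 2 round 1), 524 (day 2 round 2) and 226 (day 4) CPM. The day 1 expanded libraries were the highest of all 9, while the day 4 expanded library lay close to its control, and the groups overlapped overall. The class joins a pair of clusters, and their mix differed on day 4, when the larger cluster held 49 of the 61 control and 30 of the 85 expanded cells. Within that cluster Krt24 was at 292 CPM, in 42.9% of cells, in the control and at 601 CPM, in 86.7% of cells, in the expanded library of day 4, so it was higher in the expanded one there, and the 55 expanded cells of the other cluster stood at 93.1 CPM. Within expanded libraries the day 4 value was -2.10 (SE 0.45, adjusted p = 0.105) against day 1, and the arm difference changed by -2.25 (SE 0.61, adjusted p = 0.625) from day 1 to day 4.

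**Figure D3:**
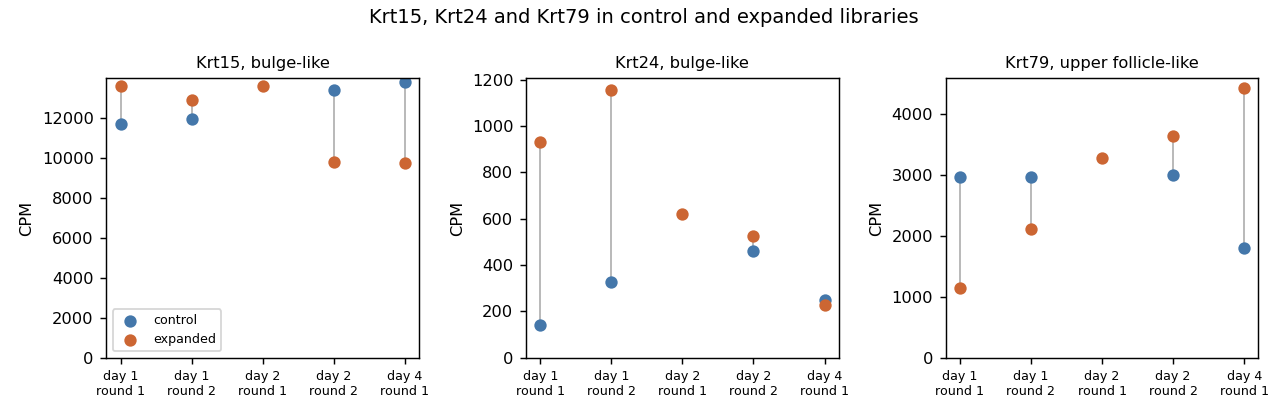
Krt15 and Krt24 CPM in bulge-like cells and Krt79 CPM in upper follicle-like cells, by library, arm and day. Krt24 lies at 929.5 and 1154 CPM in the expanded libraries of day 1 and at 139.8 and 326 CPM in the controls.

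Krt1 and Krt10, the suprabasal pair, and Krt77 shared one class order at the top. Krt1 was at 6605 CPM, Krt10 at 11231 CPM and Krt77 at 2647 CPM in spinous-like cells, where all cells held Krt1 and Krt10 and 87.6% held Krt77. Upper follicle-like cells came next, at 422, 834 and 316 CPM, and these came almost wholly from the smaller of the class's clusters, which also carries spinous markers. There Krt1 stood at 1071 CPM against 2.44 CPM in the larger cluster, Krt10 at 2056 against 43.9 CPM and Krt77 at 737 against 44.4 CPM. Across 64 class-by-library units the log2 levels of Krt1 and Krt10 correlated at r = 0.86, of Krt10 and Krt77 at 0.86 and of Krt1 and Krt77 at 0.82. Units of one library share their depth and tube, and the values are a description. Krt10 differed from Krt1 in a low level in every class, with 25.0 CPM in bulge-like cells where Krt1 was at 0.699 CPM.

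In all keratinocytes none of the 3 passed the test. Krt10 had a log2 fold change of -1.23 (SE 0.35, adjusted p = 0.0726), lower in the expanded library of all 5 pairs. Control libraries held 977 (day 1 round 1), 1518 (day 1 round 2), 410.1 (day 2 round 1), 239.7 (day 2 round 2) and 581 (day 4) CPM, and expanded libraries 274 (day 1 round 1), 585 (day 1 round 2), 243 (day 2 round 1), 234 (day 2 round 2) and 151 (day 4) CPM. The day 2 round 2 control library was the lowest control and lay among the expanded ones, so the groups overlapped. The share of cells with a Krt10 UMI ran the other way, higher in the expanded library of all 5 pairs. In the same order it was 32.2, 29.5, 14.8, 24.4 and 25.9% in control and 42.8, 33.6, 36.5, 36.4 and 31.9% in expanded libraries. Expanded keratinocytes were also deeper, with median UMIs of 13221 against 10054, and the part of depth was not tested. Krt77 had -1.81 (SE 0.50, adjusted p = 0.0735), from 437, 376, 95.5, 47.0 and 169 CPM in control to 73.3, 147, 20.5, 58.4 and 18.6 CPM in expanded libraries, and Krt1 had -0.92 (SE 0.47, adjusted p = 0.266). DESeq2 called Krt10 and Krt77 lower (adjusted p = 9.94e-04 and 0.00617) and edgeR called Krt77 lower once the Krt25-led and sebaceous gland-like cells were left out (adjusted p = 0.0414) or cells were thinned to 2000 UMIs (0.0480). Without the day 2 round 2 control library edgeR called both (adjusted p = 0.0184 and 0.0282), and without the expanded library of that day and round it called Krt77 (0.0265).

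Of keratinocytes, spinous-like cells made up 0.756 to 8.00% in control and 0.440 to 2.50% in expanded libraries. They numbered 20 or more in 1 control and 1 expanded library, both of day 1 round 2, so no test was made within them. Krt1 was at 5487 CPM in that control library and 8019 CPM in that expanded one, Krt10 at 11489 and 9430.1 CPM, and Krt77 at 2530 and 1222 CPM. In upper follicle-like cells Krt10 had -1.60 (SE 0.79, adjusted p = 0.305) and Krt77 -1.69 (SE 0.57, adjusted p = 0.163), each lower in 4 of 4 pairs, and Krt1 had -0.66 (SE 0.94, adjusted p = 0.736). The share of these cells with a Krt10 UMI was 57.0% in control and 30.9% in expanded skin on day 1 round 1. It was higher in expanded skin in the other pairs, at 40.4 and 46.4% (day 1 round 2), 26.1 and 37.9% (day 2 round 2) and 27.3 and 35.5% (day 4). Krt77 was called there without the day 1 round 1 expanded library, at -1.29 (SE 0.17, adjusted p = 1.22e-04).

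**Figure D4:**
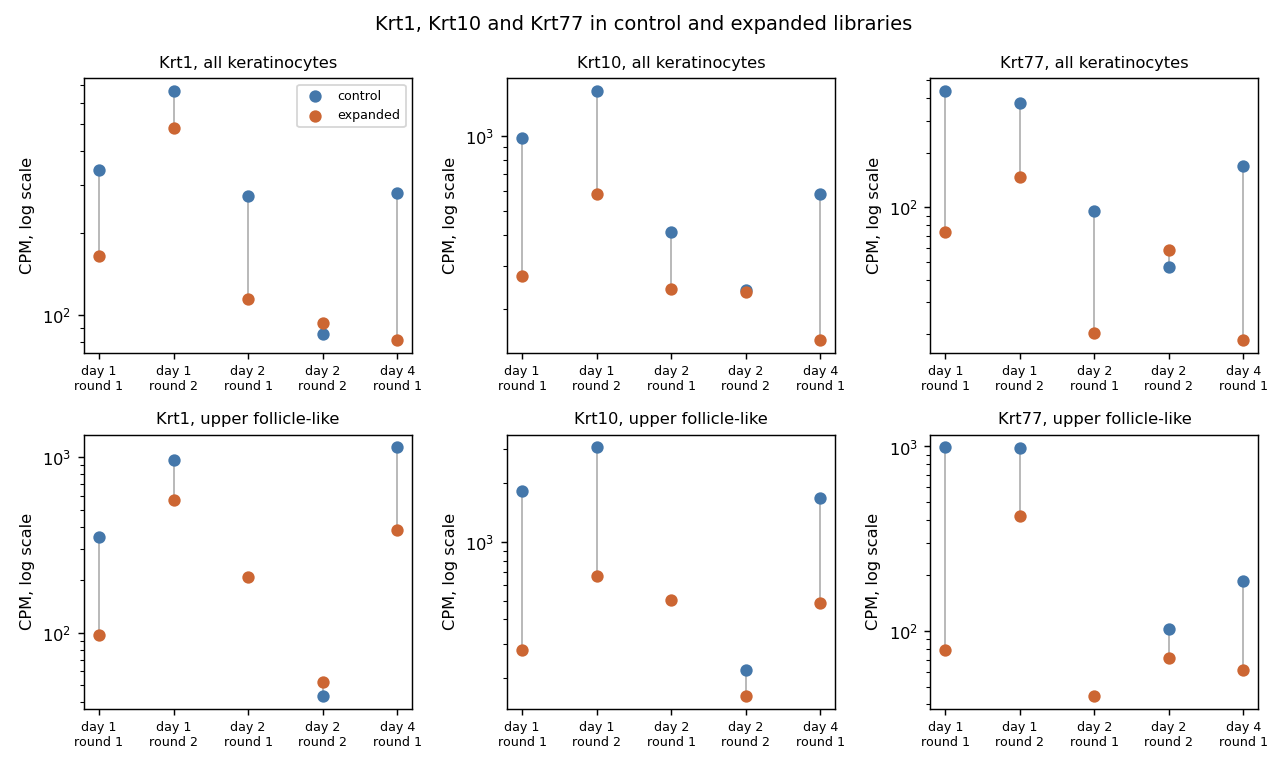
Krt1, Krt10 and Krt77 CPM by library, arm and day in all and in upper follicle-like keratinocytes. The day 2 round 2 control library sits among the expanded libraries for Krt10, at 239.7 CPM.

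The share of Krt1 and Krt10 among the UMIs of Krt1, Krt10, Krt5 and Krt14 needs no scaling between libraries. In all keratinocytes it was 15.6, 23.8, 8.87, 3.16 and 11.6% in the control and 3.56, 7.95, 3.18, 2.78 and 1.88% in the expanded libraries, in the order of days and rounds. Means were 12.6 ± 7.71% and 3.87 ± 2.36% (SD, n = 5 each), and the expanded library was lower in all 5 pairs. An exact two-sided permutation test gave p = 0.0317 and 0.0833 after adjustment over 3 populations. Like every permutation test here, it moved libraries freely between arms and used neither day nor pairs. The means in upper follicle-like cells were 25.7 ± 15.9% (SD, n = 4) and 6.57 ± 3.76% (SD, n = 5; exact permutation p = 0.0556, adjusted 0.0833), and in bulge-like cells 0.187 and 0.217%. With keratin genes kept in the clustering, the upper follicle-like class held a different set of cells, and the difference was -4.90 points in place of -19.1 (exact permutation p = 0.421), with the expanded library higher in 3 of 5 pairs. Averaging each cell's own share, in place of summing UMIs, gave differences of -3.53 points in all keratinocytes (exact permutation p = 0.0556, expanded higher in 1 of 5 pairs) and -9.93 points in upper follicle-like cells. With the spinous-like cells left out, the difference in all keratinocytes shrank from -8.74 to -2.75 percentage points (exact permutation p = 0.159). Without the day 2 round 2 control library the differences were -11.1 points in all (adjusted exact p = 0.0238) and -26.6 points in upper follicle-like keratinocytes (adjusted exact p = 0.0268), and both passed the threshold. That library was the lowest control in both populations. Without it the arms no longer overlapped, so the unadjusted p was the smallest this test can give. With other libraries left out the adjusted exact p reached 0.190 in all and 0.214 in upper follicle-like keratinocytes.

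**Figure D5:**
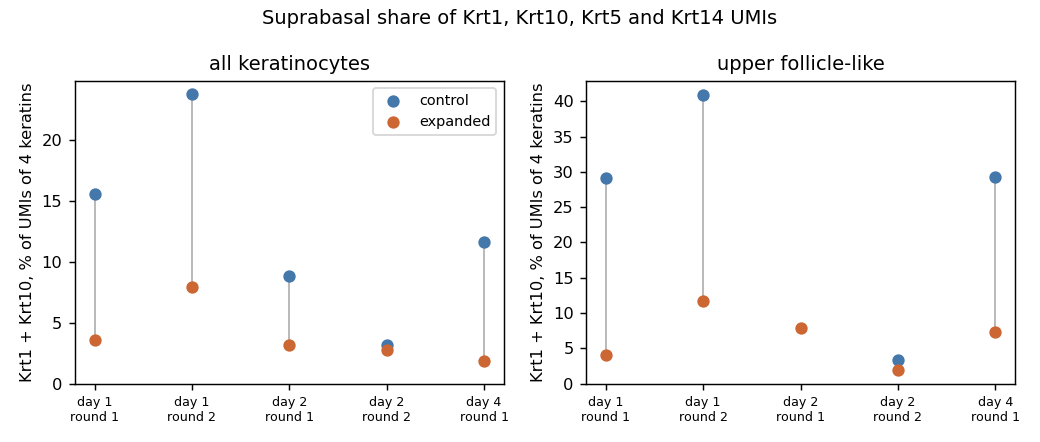
Share (percent) of Krt1 and Krt10 among the UMIs of the 4 basal and suprabasal keratins, by library, arm and day, in all and in upper follicle-like keratinocytes. In all keratinocytes it runs from 3.16 to 23.8% in control and from 1.88 to 7.95% in expanded libraries.

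Cells holding at least 3 UMIs of Krt5 or Krt14 and at least 3 of Krt1 or Krt10, after thinning each cell to 2000 UMIs, were 3.54 ± 1.86% of keratinocytes in control and 2.68 ± 0.942% in expanded libraries (exact two-sided permutation p = 0.389). Thinning left out 44 control and 33 expanded cells shallower than that. Unthinned, the shares were 7.27 and 9.16%, with median UMIs of 10054 in control and 13221 in expanded keratinocytes. The same measure was 0% in fibroblast-like cells of both arms, whose medians were 11410.5 and 18443.5 UMIs.

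Krt79, a type II keratin of the upper follicle, was highest in upper follicle-like cells at 2642 CPM, in 67.4% of cells, followed by sebaceous gland-like cells at 1006 CPM. It was almost absent from spinous-like cells, at 2.20 CPM, and from bulge-like cells, at 4.32 CPM. Control libraries held 2963 (day 1 round 1), 2969 (day 1 round 2), 2989 (day 2 round 2) and 1801 (day 4) CPM in upper follicle-like cells. Expanded libraries held 1138 (day 1 round 1), 2103 (day 1 round 2), 3269.7 (day 2 round 1), 3627 (day 2 round 2) and 4414 (day 4) CPM. Expanded libraries were below the controls on day 1 and above them on days 2 and 4, and the groups overlapped. The class joins a pair of clusters with unlike Krt79 levels. In the larger one the level was 1421 and 2114 CPM in control against 682 and 928 CPM in expanded libraries on day 1, and 1042 against 2729.6 CPM on day 4. In the smaller one it was 4760.3 and 4050.3 against 2878 and 3322 CPM on day 1 and 3979 against 6515 CPM on day 4, in the same directions as the class. On day 2 the order within the larger cluster was the reverse of that of the class, with 1163 CPM in the round 2 control and 659 CPM in the round 1 expanded library, the libraries with at least 20 such cells. The smaller cluster had that many on day 2 only in the control, at 7972 CPM in 23 of its 88 cells of the class. Over all days the log2 fold change was -0.13 (SE 0.44, adjusted p = 0.902). By day it was -0.98 (SE 0.25, adjusted p = 0.0873) on day 1, 0.19 (SE 0.30, adjusted p = 0.928) on day 2 and 1.20 (SE 0.35, adjusted p = 0.416) on day 4, where 1 library stood in each arm. The arm difference on day 4 less that on day 1 was 2.18 (SE 0.43, adjusted p = 0.425). None passed the threshold.

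Krt75, a companion layer keratin, was low in every class with all libraries summed. Its highest levels were 39.3 CPM in the Wfdc18-led, 31.8 CPM in the Fgf18-led and 29.5 CPM in the Krt25-led cluster, and in bulge-like cells it was at 13.3 CPM in 11.2% of cells. Over all keratinocytes its log2 fold change was -0.91 (SE 0.44, adjusted p = 0.230). The highest control library was that of day 1 round 2, at 23.2 CPM. There 70 of the 166 Krt75 UMIs came from Slc7a2-led cells, where 3.125% of 32 cells held it. Krt18, the simple epithelial keratin, reached no more than 7.70 CPM in any class with all libraries summed. It rested on 271 UMIs in all 4878 keratinocytes. Of these, 20 came from the 22 Slc7a2-led cells of the day 1 round 1 expanded library, where 4.55% of cells held it. No Krt18 UMI was found in bulge-like cells, which allows a level of up to 0.191 CPM by counting error alone. Its log2 fold change was -0.89 (SE 0.70, adjusted p = 0.459), and no difference was detected at this depth.

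Other genes of the keratin network came from lists chosen with earlier results of these data known, and the counts describe them. They stand beside 8.14% of all genes called in all, 4.91% in bulge-like and 5.57% in upper follicle-like keratinocytes. In all keratinocytes, 1 of 4 wound-induced keratins rose, Krt6b, from 1.71 ± 3.48 to 34.5 ± 19.8 normalised CPM (SD, n = 5 each), with a log2 fold change of 4.57 (SE 0.97, adjusted p = 0.0386). Its close relative Krt6a rose in upper follicle-like cells, with 1.13 (SE 0.13, adjusted p = 2.20e-04). Reads of these near-identical genes could be split by the counting, so each is uncertain alone. The median log2 fold change of the 4 was 0.71 in all and 1.39 in upper follicle-like keratinocytes, beside 0.01 and -0.01 over all genes. Krt6b was also the only one called of the 11 other keratin genes tested in all keratinocytes, and Krt6a of 6 tested in upper follicle-like cells, while none of 5 was called in bulge-like cells.

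Hemidesmosomes anchor the Krt5 and Krt14 filaments to the basement membrane. Of 11 hemidesmosome and basement membrane genes, 2 rose and none fell in all keratinocytes (background 8.14%). These were the integrin subunits Itgb4 with 0.74 (SE 0.13, adjusted p = 0.00784) and Itga3 with 0.48 (SE 0.12, adjusted p = 0.0289). In bulge-like cells 2 fell (background 4.91%), the linker Dst with -0.61 (SE 0.14, adjusted p = 0.0255) and the laminin chain Lamb3 with -0.48 (SE 0.12, adjusted p = 0.0323), and in upper follicle-like cells none was called. Of 11 filament partners, the desmosomal Pkp1 rose in all keratinocytes with 0.40 (SE 0.11, adjusted p = 0.0478), and none of 10 tested was called in either class. Early differentiation genes fell in 1 of 17, the metallothionein Mt4, with -3.87 (SE 0.23, adjusted p = 6.89e-06), in all keratinocytes. Mt4 was among the markers that named the spinous-like class. That class made up 0.756 to 8.00% of keratinocytes in control and 0.440 to 2.50% in expanded libraries. The part of makeup in the Mt4 difference was not tested. Sfn, named after its value was seen, was lower in upper follicle-like cells, and none of 8 tested was called in bulge-like cells. Of 17 late differentiation genes, 6 were measurable in all and 5 in upper follicle-like keratinocytes, none was called, and the medians were -0.65 and -0.67. None of them could be tested in bulge-like cells.

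Of 30 regulators of keratin genes, 6 fell and none rose in upper follicle-like cells, with a median log2 fold change of -0.32 beside -0.01 over all 7599 genes, of which 5.57% were called, 188 higher and 235 lower. The 6 included the AP-1 subunits Fosl1 with -0.78 (SE 0.14, adjusted p = 0.00532) and Fosl2 with -0.54 (SE 0.15, adjusted p = 0.0396), Ets2 with -0.66 (SE 0.16, adjusted p = 0.0287) and the follicle factor Sox9 with -0.59 (SE 0.13, adjusted p = 0.0173). Klf5, named after its value was seen, was also among those called. In bulge-like cells Jun fell with -0.45 (SE 0.11, adjusted p = 0.0315), 1 of 26 tested. In all keratinocytes Cebpa, named after its value was seen, was the 1 of 30 called, and it was lower.

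Over the same 64 units in 13 classes, 7805 genes outside the keratin family were ranked by correlation of log2(CPM + 1) with each member. Closest to Krt5 were Capns2 (r = 0.78), Sept9 (r = 0.76) and Tgfbi (r = 0.76), and to Krt14 Anxa2 (r = 0.63), Pdlim1 (r = 0.63) and Tmed3 (r = 0.62). Krt15 was followed most closely by Col17a1 (r = 0.86), Ppp2r3a (r = 0.85) and Tgfbi (r = 0.84), with the hemidesmosome collagen Col17a1 first. Krt24 had S100a4 (r = 0.84), Wfdc3 (r = 0.79) and Il31ra (r = 0.76). The suprabasal keratins shared a leading gene, Tmprss4, with Krt1 followed by Tmprss4 (r = 0.92), Oas1f (r = 0.90) and 2310046K23Rik (r = 0.85), Krt10 by Tmprss4 (r = 0.83), Calm4 (r = 0.82) and 2310046K23Rik (r = 0.81) and Krt77 by Tmprss4 (r = 0.84), Pkib (r = 0.82) and Oas1f (r = 0.82). Krt79 had Defb6 (r = 0.80), Sdr16c6 (r = 0.79) and Adgrl2 (r = 0.75), Krt75 Sulf2 (r = 0.63), Aplp2 (r = 0.60) and Crot (r = 0.60) and Krt18, at its low counts, Utp23 (r = 0.58), Nrp2 (r = 0.57) and Sept11 (r = 0.54). Krt15 and Krt24 correlated with each other at r = 0.76, and Krt5 and Krt14 at 0.57. The units come from clusters of the same cells. Defb6, Calm4 and Col17a1 were also among the markers used in naming clusters, so all these values are a description.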

How the data were processed

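The 10 mRNA libraries were 10x Genomics 3′ v3.1 libraries of live-sorted skin cells. The authors deposited raw UMI counts per gene and barcode, made with Cell Ranger 6.1.2 on the mm10 genome, per the submitters' processing notes; further settings are not given in the sources used here. The 8 hashing samples hold lists of antibody barcodes, whose counts stand in the mRNA matrices and were used with HTODemux (Seurat 5.3.0, quantile 0.99) to find cells with more than 1 hashtag in 8 libraries. Barcodes needed 200 genes, 500 UMIs and a mitochondrial share of 10% or less, which 47251 of 55174 met, and 1763 doublets found by scanpy's Scrublet (2 to 247 a library) or by hashtags were removed, 1.46 to 5.78% of a library. Cells were clustered with scanpy 1.11.5 and leidenalg 0.10.2 (Python 3.11.15) on 2000 variable genes less keratins, with 30 components and resolution 1, first over all cells (38 clusters) and then within keratinocytes (20 clusters). A cluster was named by markers without keratins, and the naming rule was set after the clusters had been seen. Of keratinocytes, 231 in clusters of low UMI count or with markers of other cells were left out. Counts were summed per class and library with at least 20 cells and tested with edgeR 4.0.16 (quasi-likelihood, TMM, filterByExpr, day as covariate, R 4.3.3, limma 3.58.1) with Benjamini-Hochberg adjustment over all genes tested at 0.05; edgeR was tested on simulated data first. DESeq2 1.42.0 was an alternative. Adjusted p-values are those of edgeR unless DESeq2 or an exact permutation test is named. With pools of animals as replicates, p-values measure the spread between libraries. The total per library, 17726739 to 75470722 UMIs, limits precision, and intervals and floors cover counting error only. Libraries of one round were sequenced together per the labels; deviations from group means correlated at r = 0.32 on day 1 and 0.06 on day 2 within a round, so the pair of day and round was a block in an alternative. Besides all members, the text names at most 5 called genes of each list with the largest change that moved the same way in every pair, and for each member the 3 most similar genes outside the family. Of the genes so chosen, 1 is not reported here. Members and lists were chosen with earlier results of these data known. Coordinates are from GENCODE vM21 on GRCm38 and promoters from RefSeq.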

Additional observations from a re-analysis of the deposited data

Results flagged for a closer look

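Groups of 4 or 5 libraries were checked for a single library far from the others, and 8 of 46 groups had one. The rule flags about 1 in 20 groups drawn from 1 normal distribution. These groups mix days and share libraries, so that rate need not hold for them. In all keratinocytes the control library of day 2 round 2 stood high, at 6537 CPM of Krt14 and 114 CPM of Krt24, and the control library of day 2 round 1 stood high at 28.0 CPM of Krt18, in 61 cells. The expanded library of day 1 round 2 stood high at 485 CPM of Krt1 and 585 CPM of Krt10. In upper follicle-like cells that library stood high at 420.2 CPM of Krt77, the expanded library of day 1 round 1 stood high at 3093 CPM of Krt5, and the control library of day 4 stood low at 1801 CPM of Krt79.

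The arm difference on day 1 was compared with that on day 2 in 23 cases. Only the 10 in all keratinocytes had 2 pairs on both days, which a check of direction needs. The bulge-like and upper follicle-like classes lacked the day 2 round 1 control library, so no reversal of direction could be flagged in them. In all keratinocytes 3 ran in opposite directions in every pair. The difference was -1.18 on the log2 scale for Krt15 (edgeR interaction adjusted p = 0.0850), 1.15 for Krt79 (adjusted p = 0.455) and 1.44 for Krt75 (adjusted p = 0.641), so none passed the threshold. For Krt79 the day 2 round 2 pair was nearly level, at 918 CPM in control and 920.1 CPM in expanded skin. For Krt75 day 2 rested on few UMIs, 0 in control and 6 in expanded skin in round 1. In round 2 they were 28 (5.85 CPM) and 24 (9.22 CPM).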

How the results depend on the processing

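The alternatives were chosen with the tests, except 5 added after seeing the data: no filter on low counts and at most 5% mitochondrial UMIs in all keratinocytes, leaving out the Krt25-led and sebaceous gland-like clusters, the larger upper follicle-like cluster alone, and the suprabasal share without spinous-like cells. Of 175 member fold changes under other settings, 142 kept direction and side of the threshold, and of 217 with 1 library left out, 195 did; the others are given here or in the report, and the cause was not tested unless named. In all keratinocytes 934 genes were called, against 187 with cells thinned to 2000 UMIs (fewer genes tested), 1436 by DESeq2, 1944 with no filter, 1832 without the Krt25-led and sebaceous gland-like clusters, and 251 to 1582 with 1 library left out. Members called there were 2, against 5 by DESeq2, 9 with no filter (where edgeR estimated no gene-specific spread), and 1 to 5 with 1 library left out. In bulge-like cells the 363 genes became 40 with at least 50 cells per library, 26 thinned, 165 at Leiden resolution 0.5, 70 at resolution 2, 658 with no filter, and 106 to 342 with 1 library left out; 0 members were called in all of these. In upper follicle-like cells the 423 genes became 217 with at least 50 cells per library, 25 thinned, 260 by DESeq2, 229 in the larger cluster, 119 at resolution 2, 769 with no filter, and 127 to 478 with 1 library left out. The 1 member called there became 0 when thinned or in the larger cluster, 2 with no filter, and 0 to 2 with 1 library left out.

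The pair of day and round as a replicate block raised the genes called to 1418 in all and 733 in upper follicle-like keratinocytes, with 2 members in each; beside Krt5 in upper follicle-like cells it changed no member's call. In upper follicle-like cells at resolution 2 and with keratins kept in clustering, where Krt14 was not called, Krt77 was called lower (adjusted p = 0.0396 and 0.0224).

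Some fold changes near 0, none called, changed sign. With 1 library left out, Krt79 in all keratinocytes ran from -0.12 to 0.44 and in upper follicle-like cells from -0.54 to 0.20, Krt15 in upper follicle-like cells from -0.33 to 0.0166, Krt14 in bulge-like cells from -0.0859 to 0.0787 and Krt75 there from -0.26 to 0.57. In bulge-like cells, Krt15 was 0.0326 at resolution 2, and Krt75 was -0.0588 with keratins kept in clustering, -0.13 with at least 50 cells and -0.0209 with at most 5% mitochondrial UMIs. In upper follicle-like cells, Krt15 was 0.0277 thinned, 0.0209 with keratins kept, 0.17 at resolution 2, 0.0353 with at least 50 cells and 0.0774 in the larger cluster, and at resolution 0.5 Krt1 was 0.30 and Krt79 0.0271. With 1 library left out the suprabasal share differed by -11.1 to -5.95 points in all and -26.6 to -14.1 points in upper follicle-like keratinocytes, and averaged over cells by -3.53 and -9.93 points. With keratins kept in clustering it was -8.76 and -4.90 points, the latter with the expanded library higher in 3 of 5 pairs. The difference in cells with both kinds of keratin was -0.868 points in all keratinocytes, 1.03 at 1 UMI of each and 1.89 unthinned, and in upper follicle-like cells -3.17 to 1.07 with 1 library left out. Depth limits Krt18 and Krt75, which had few UMIs in most libraries.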

Other observations

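Keratin UMIs were also found outside keratinocytes. In 600 melanocyte-like cells Krt14 was at 982 CPM, Krt15 at 540.4 CPM and Krt5 at 305 CPM, in 12.2 to 16.5% of cells, and the Krt14 level ran from 17.8 to 2079 CPM over libraries. In 9570 fibroblast-like cells Krt10 was at 16.8 CPM, in 17.6% of cells and within 12.5 to 23.7 CPM in every library, while Krt1 was at 0.835 CPM in 0.878% of cells. The Krt10 level of those fibroblast-like cells was 17.3 ± 3.03 CPM in control and 17.8 ± 4.48 CPM in expanded libraries (SD, n = 5 each).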
